A study of Mus musculus with 6 samples.

Results

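The 32 genes described here encode the proteins that take up long-chain fatty acids, carry them into mitochondria and oxidize them there, together with target genes of PPAR-alpha, the fatty acid receptor that acts as a transcription factor. They were taken by name from the count tables of RNA from mouse heart muscle cells, in which all 32 are among 46078 gene features. Cells came from hearts taken apart by perfusion, in 2 groups of 3 libraries. Acly-KD libraries came from hearts in which Acly was knocked down in MyH6-Cas9 mice, where the Myh6 promoter drives Cas9 in heart muscle cells, and control libraries carry the genotype label wildtype. The sources used here do not say how the knockdown was delivered, how old the mice were, whether control mice carried Cas9 or whether each library is a separate animal. The p-values therefore reflect the spread of these 6 libraries alone, which may be technical. Values per library are listed in the order of replicates 1 to 3. The comparison asks how transcripts for fat use differ when ATP citrate lyase, which makes cytosolic acetyl-CoA from citrate, is reduced.

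Heart muscle draws most of its energy from fatty acids. They enter the cell through CD36 and transport proteins, are bound by FABP3 in the cytosol, activated to acyl-CoA and passed across the mitochondrial membranes as carnitine esters. Repeated cycles of dehydrogenation, hydration, a second dehydrogenation and thiolysis then release acetyl-CoA. Cytosolic acetyl-CoA is also the source of malonyl-CoA, which inhibits the carnitine step, and the enzyme encoded by Mlycd removes malonyl-CoA.

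Reads counted in features numbered 271463 to 814765 per library, 2.81% to 3.07% of the uniquely aligned reads, and control replicate 1 was the smallest. Acly itself, the targeted gene, had 0, 0 and 0 reads in the Acly-KD libraries and 1, 5 and 6 reads in the controls. These reads of its own feature are too few for more than a limited check of the labels. They also may not measure Acly mRNA, given the strand of the counts described next. The library kit marks strand, the sources used here do not give the strand setting of the counting, and features on the other strand of abundant transcripts held many of the reads. At the fatty acid genes, Acadvl, an abundant heart enzyme, had 190 reads in the 6 libraries together, while the feature on the other strand of its exons had 60985. Each gene is therefore given by the reads of its own feature, called own-locus reads, and by the reads of any feature whose exons overlap it on the other strand.

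Of the 32 genes, 8 had exons that overlapped a feature on the other strand and 24 had none. There were 9 such features, of which 8 are in the count tables, and 3 of these 8 held a mean of at least 10 reads. They were Zcchc17, opposite to Fabp3, Dvl2, opposite to Acadvl, and Gm16984, opposite to Eci2. Fabp3 (chromosome 4, 130308595 to 130315463, plus strand, mm10) shared 81 bases with Zcchc17 at the end of its last exon, beyond the coding part and in its only annotated transcript. Acadvl (chromosome 11, 70010183 to 70015411, minus strand) shared 1151 bases in 8 stretches with Dvl2, of which 860 were coding. Eci2 (chromosome 13, 34977748 to 35027096, minus strand) shared 189 bases, all coding, with Gm16984, an annotated antisense RNA. These stretches lay in 4 of 7 Acadvl transcripts and 10 of 14 Eci2 transcripts. On the partner side the shared bases lay in 1 of 5 Zcchc17, 2 of 7 Dvl2 and 1 of 3 Gm16984 transcripts. Exonic bases of these 3 features numbered 4560, 6298 and 1018.

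**Figure D1:**
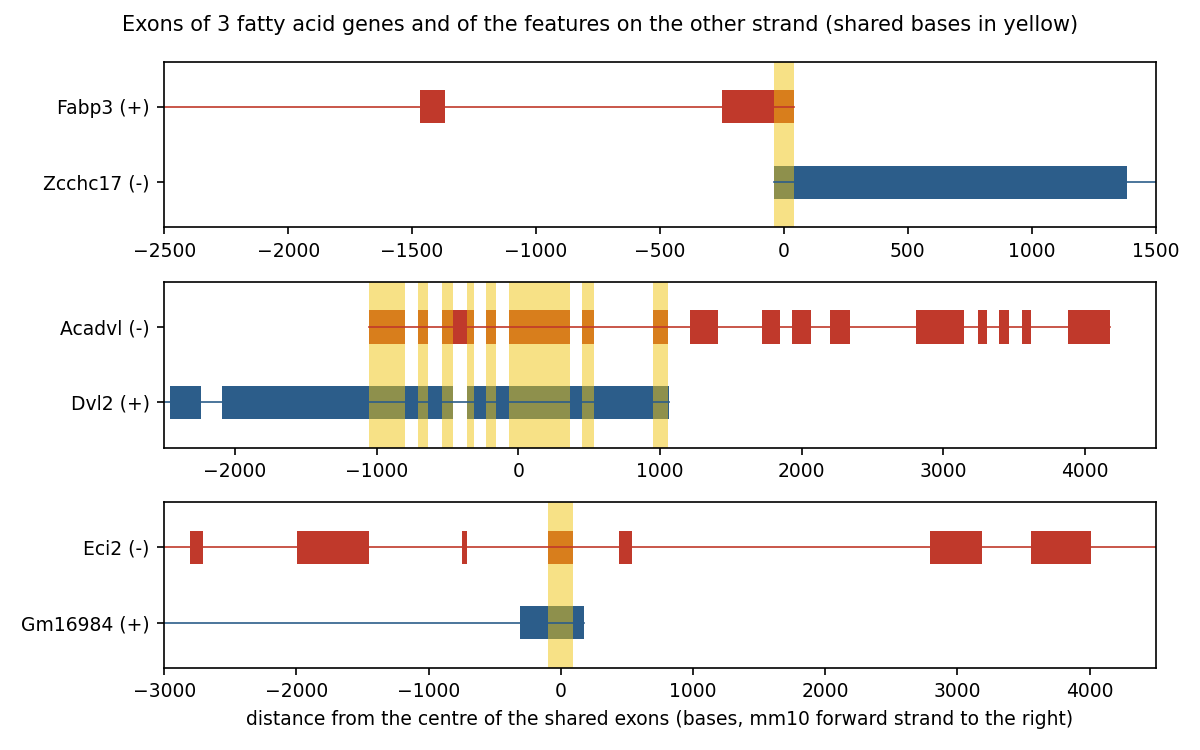
Exons of Fabp3, Acadvl and Eci2 (red) and of the features on the other strand (blue), over all annotated transcripts, by distance in bases from the centre of the shared exons, with shared bases in yellow. Fabp3 meets Zcchc17 at its last 81 bases, Acadvl shares 8 stretches with Dvl2, and Eci2 shares a single stretch of 189 bases with Gm16984.

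A coding stretch of Acadvl and of Eci2 is printed here, since these bases are also exons of Dvl2 and Gm16984 on the other strand. The counts do not show where in a feature its reads lie. The stretches are given in the direction of Acadvl and Eci2, from GENCODE M21 transcripts. The Acadvl stretch, chr11:70010296-70010436 on the minus strand, is the coding part of exon 19 of 19 with the stop codon in capitals. The Eci2 stretch, chr13:34990181-34990369 on the minus strand, is exon 4 of 10.
Acadvl: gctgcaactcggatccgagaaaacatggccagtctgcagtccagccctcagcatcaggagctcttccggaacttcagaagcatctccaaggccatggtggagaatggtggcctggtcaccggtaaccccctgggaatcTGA
Eci2: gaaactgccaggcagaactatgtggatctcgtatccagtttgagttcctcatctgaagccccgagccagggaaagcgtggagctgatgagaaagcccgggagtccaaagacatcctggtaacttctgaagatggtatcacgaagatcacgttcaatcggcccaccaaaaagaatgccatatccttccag

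None of the 3 abundant opposite features differed between the groups beyond the spread between libraries, and they varied little among the 6 libraries. Values are in CPM, reads per 1000000 reads in features scaled by TMM, a normalization that sets the libraries to a common level. Fold changes are Acly-KD over control and were tested by edgeR's quasi-likelihood method, and p was adjusted by Benjamini-Hochberg over all features. Over all 2952 features tested as deposited, 0.0% were called higher and 0.0% lower at an adjusted p under 0.05, with 180 features at an unadjusted p under 0.05, and DESeq2 also called 0. Without Acly-KD replicate 3, 23 features were called higher and 46 lower, with no fatty acid gene and no feature opposite to one among them. Groups did not overlap for 11.4% of features as deposited. Among the 3 opposite features the count of groups that did not overlap was 0, and 0 had an unadjusted p under 0.05.

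The feature opposite to Fabp3, the fatty acid binding protein of heart cytosol, read 6956, 6223 and 6035 CPM in the Acly-KD libraries and 7723, 5914 and 5920 CPM in the controls. Control replicate 1 was the highest and the groups overlapped. The log2 fold change of this feature, Zcchc17, was -0.02 (95% interval -0.32 to 0.27, adjusted p = 0.977 in edgeR). Another feature, Gm10570, shares 80 bases with the first exon of Fabp3 and held only 1, 1 and 3 reads in the Acly-KD libraries and 1, 0 and 0 in the controls. Zcchc17 held 23143 reads in all and Gm10570 held 6, counted over all exons of each feature and not over the shared bases alone.

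Acadvl encodes the very long chain acyl-CoA dehydrogenase, which opens the oxidation cycle of long chains at the inner mitochondrial membrane. The feature opposite to it, Dvl2, read 17533, 17965 and 15254 CPM in the Acly-KD libraries and 17496, 15577 and 17306 CPM in the controls. The groups overlapped, with the lowest value in Acly-KD replicate 3 and the highest in Acly-KD replicate 2. The log2 fold change of Dvl2 was 0.01 (95% interval -0.25 to 0.27, adjusted p = 0.986 in edgeR). It changed sign under 6 of 14 alternative settings, as did Zcchc17, without a call.

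Eci2 encodes an isomerase that moves the double bond of unsaturated chains so that oxidation can go on. The antisense feature Gm16984 read 1090, 1155 and 1025 CPM in the Acly-KD libraries and 1074, 990 and 982 CPM in the controls. Acly-KD replicates 1 and 2 were above all controls and replicate 3 lay between control replicates 1 and 2. The log2 fold change of Gm16984 was 0.10 (95% interval -0.19 to 0.39, adjusted p = 0.965 in edgeR).

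**Figure D2:**
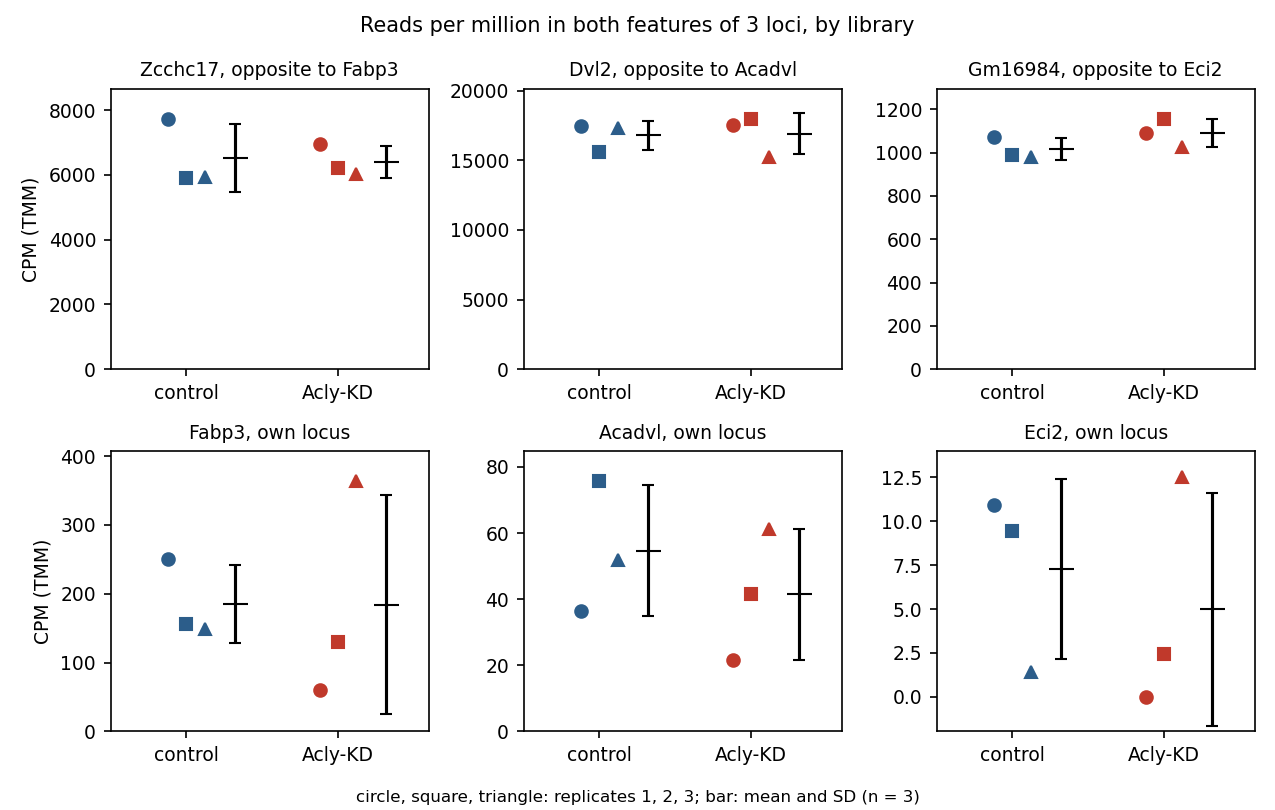
CPM in each library for the features opposite to Fabp3, Acadvl and Eci2 (top) and for the own loci of these genes (bottom), in control (blue) and Acly-KD (red), with the mean and SD of 3 libraries. The opposite features lie close together, for example 15254 to 17965 CPM for Dvl2, while Fabp3 at its own locus ranges from 59.9 to 364 CPM.

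The same reads were also given to the gene on the other strand and tested among genes read in this way only, which is called the reading of mRNA. Of the 32 genes, 3 could be read so, and of 1453 genes tested 0.206% were called higher and 0.206% lower, and without Acly-KD replicate 3 the calls were 8 higher and 12 lower. None of the 3 was among them in either case, and 0 of the 3 had an unadjusted p under 0.05 with all libraries. The log2 fold change was -0.05 (95% interval -0.29 to 0.18) for Fabp3, -0.02 (-0.20 to 0.16) for Acadvl and 0.08 (-0.17 to 0.33) for Eci2, with adjusted p in edgeR of 0.935, 0.952 and 0.920. For Eci2 the reading gave 1983, 2156 and 2073 CPM in the Acly-KD libraries and 2099, 1944 and 1862 CPM in the controls, so that the groups overlapped. Groups did not overlap for 14.7% of all genes in this reading and for 0 of these 3. Transcripts of the fatty acid gene and other RNA from its partner's locus cannot be told apart in these counts.

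The other 5 opposite features in the tables were nearly empty. Garem2, opposite to Hadha, had 1 read in all, Paox, opposite to Echs1, had 0, and 4930579G24Rik, opposite to Etfdh, had 3. Dnajb13, opposite to Ucp2, had 4, and Gm10570 at the start of Fabp3 had 6. In the first 4 of these pairs the shared bases held no coding sequence of the fatty acid gene and lay in 1 of its 9, 6, 7 and 11 annotated transcripts. Gm45244, opposite to Acsl1 over 1039 bases, has no row in the tables used here. For the 29 genes other than Fabp3, Acadvl and Eci2 the own locus is therefore what these counts offer.

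Own-locus reads were few. The 32 genes together held 3203 in the 6 libraries, 14 genes had a mean of at least 10 per library, 18 had fewer, and 2 had 0 reads in every library. In all, 16 genes passed the filter on low counts and 16 did not. Of the 16 tested, 0 were called higher and 0 lower, against 0.0% of all features in either direction, and 0 had an unadjusted p under 0.05. Their log2 fold changes lay below zero for 13 and above zero for 3, with a median of -0.44, beside 54.4% below zero and a median of -0.04 over all features tested. Without Acly-KD replicate 1 the median of the fatty acid genes was -0.05, without control replicate 1 it was -0.17, and without Acly-KD replicate 3 it was -1.02. In bulk RNA, fewer cells of a type and less RNA per cell cannot be told apart. Whether own-locus reads follow the RNA of the gene was not tested.

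Uptake and activation are represented by 4 genes, of which 3 were tested. Fabp3 had the most own-locus reads of all members, 687 in total, and read 59.9, 129 and 364 CPM in the Acly-KD libraries and 251, 156 and 148 CPM in the controls. Acly-KD libraries were thus both the lowest and the highest, and the log2 fold change was 0.06 (95% interval -1.71 to 1.83, adjusted p = 0.986 in edgeR). Cd36, the fatty acid translocase of the cell surface, had 14, 9 and 28 reads in the Acly-KD libraries and 11, 36 and 20 in the controls, or 26.2 ± 7.66 and 37.1 ± 7.36 CPM (SD, n = 3 each). The groups overlapped in CPM through Acly-KD replicate 3 and control replicate 3, with a log2 fold change of -0.47 (95% interval -1.35 to 0.41). Acsl1, the main acyl-CoA synthetase of the heart, had 7, 3 and 41 reads in the Acly-KD libraries and 7, 26 and 8 in the controls. Its log2 fold change was 0.14 with all libraries and -1.18 without Acly-KD replicate 3, which held the most reads. Slc27a1, a fatty acid transport protein, had 18 reads in all and was not tested.

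No gene of the carnitine shuttle passed the filter. The carnitine transporter Slc22a5 had 7 reads in the 6 libraries, the outer membrane transferases Cpt1a and Cpt1b had 6 and 4, the inner membrane transferase Cpt2 had 27, and the carnitine carrier Slc25a20 had 31. The highest count of any of them in a single library was 10 reads. Slc25a20 had 6, 6 and 9 reads in the Acly-KD libraries and 2, 4 and 4 in the controls, or 11.7 ± 2.75 and 5.92 ± 1.28 CPM (SD, n = 3 each). Its groups did not overlap, as was the case for 11.4% of all features tested, and it was the only one of the 32 genes at its own locus for which this held. With so few reads it was not tested, and it is given per library after its values were seen. For Slc22a5, Cpt1a, Cpt1b and Cpt2 a difference was not detectable in these own-locus counts. These genes have no opposite feature, so their few own-locus reads do not show whether their mRNA was scarce.

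The 4 acyl-CoA dehydrogenases, which differ in the chain length they accept, were all tested. Acadl, for long chains, read 26.1, 46.4 and 78.7 CPM in the Acly-KD libraries and 102, 62.7 and 41.7 CPM in the controls, a log2 fold change of -0.36 (95% interval -1.27 to 0.55). Acadm, for medium chains, read 30.7, 53.7 and 67.5 CPM in the Acly-KD libraries and 40.1, 62.7 and 27.3 CPM in the controls. It had the highest log2 fold change of the tested members, 0.20 (95% interval -0.65 to 1.06), and its groups overlapped as well. Acadvl at its own locus read 21.5, 41.5 and 61.2 CPM in the Acly-KD libraries and 36.4, 75.7 and 51.8 CPM in the controls, a log2 fold change of -0.44 (95% interval -1.30 to 0.43). Acads, for short chains, had 55 reads in all and a log2 fold change of -0.65 (95% interval -1.88 to 0.57). Adjusted p of these 4 genes in edgeR was 0.959 or higher. Without Acly-KD replicate 3 the values were -0.83 for Acadl, -0.86 for Acadvl and -1.17 for Acads. Without Acly-KD replicate 1 they were -0.01 for Acadl, -0.12 for Acadvl and -0.42 for Acads.

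Next in the cycle are the hydratases, hydroxyacyl-CoA dehydrogenases and thiolases. Hadha, the alpha subunit of the trifunctional protein, had 515 own-locus reads and the narrowest interval of the members at their own loci. It read 86.0, 139 and 176 CPM in the Acly-KD libraries and 149, 148 and 137 CPM in the controls, and Acly-KD again held both extremes. The log2 fold change of Hadha was -0.10 (95% interval -0.64 to 0.43, adjusted p = 0.965 in edgeR). Hadhb, the beta subunit, is encoded next to Hadha on the other strand and had 70 reads, with a log2 fold change of -0.10 (95% interval -1.41 to 1.21). Unlike most members it did not have its lowest value in Acly-KD replicate 1, which read 29.2 CPM, beside 9.77 and 15.0 CPM in Acly-KD replicates 2 and 3 and 29.1, 27.2 and 5.75 CPM in the controls.

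Hadh, the dehydrogenase for shorter chains, read 7.68, 39.1 and 56.2 CPM in the Acly-KD libraries and 58.3, 48.5 and 48.9 CPM in the controls. Acaa2, the mitochondrial thiolase, read 10.7, 36.6 and 90.0 CPM in the Acly-KD libraries and 98.3, 66.3 and 50.3 CPM in the controls. Both were lowest in Acly-KD replicate 1, with log2 fold changes of -0.57 (95% interval -1.67 to 0.54) for Hadh and -0.55 (95% interval -2.00 to 0.89) for Acaa2. These values rested on single libraries. Without Acly-KD replicate 3 they were -1.21 for Hadh and -1.59 for Acaa2 (adjusted p = 0.0849 for Acaa2 in edgeR), and without Acly-KD replicate 1 they were -0.06 and -0.05. Echs1, the short-chain hydratase, had 3, 0 and 33 reads in the Acly-KD libraries and 11, 13 and 7 in the controls. It had the widest interval, -2.65 to 2.29 around a log2 fold change of -0.18, and its value was -2.63 without Acly-KD replicate 3.

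The enzymes for unsaturated chains gave few own-locus reads. Eci1, the other mitochondrial isomerase, had 50 and a log2 fold change of -0.44 (95% interval -1.69 to 0.80). Decr1, the dienoyl-CoA reductase, had 37 and Eci2 had 23, and neither was tested. Eci2 at its own locus had 0, 1 and 10 reads in the Acly-KD libraries and 3, 8 and 1 in the controls.

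Electrons from the dehydrogenases pass through the flavoprotein encoded by Etfa and Etfb to its oxidoreductase, encoded by Etfdh. Etfa had 2, 4 and 23 reads in the Acly-KD libraries and 8, 23 and 9 in the controls. Etfb had 8, 9 and 35 reads in the Acly-KD libraries and 8, 47 and 15 in the controls. Etfdh had 7, 16 and 52 reads in the Acly-KD libraries and 25, 41 and 21 in the controls. Acly-KD replicate 3 held the most reads of its group for each of the 3 genes, and the groups overlapped. The log2 fold changes of Etfa, Etfb and Etfdh were -0.61, -0.45 and -0.45, with adjusted p in edgeR of 0.959 to 0.965. Etfa was -1.85 without Acly-KD replicate 3 and -0.10 without Acly-KD replicate 1.

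The PPAR-alpha targets and the malonyl-CoA enzyme were at or near zero at their own loci. The 8 genes held 96 reads together, with at most 8 in any library, and 0 were tested. The uncoupling proteins Ucp2 and Ucp3 had 8 and 21 reads, the acyl-CoA thioesterases Acot1 and Acot2 had 12 and 24, Angptl4, an inhibitor of lipoprotein lipase, had 11, and Mlycd had 20. Acot1 and Acot2 are close copies of each other, and reads that fit both could be lost or split. Ehhadh, a peroxisomal enzyme of fatty acid oxidation, and Vnn1, a pantetheinase, had 0 reads in all 6 libraries, which allows up to 3 reads in each, or 3.55 to 10.9 CPM by library, for counting error only. None of these 8 has a measured partner on the other strand with more than 4 reads, so a difference in these genes was not detectable in these counts.

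**Figure D3:**
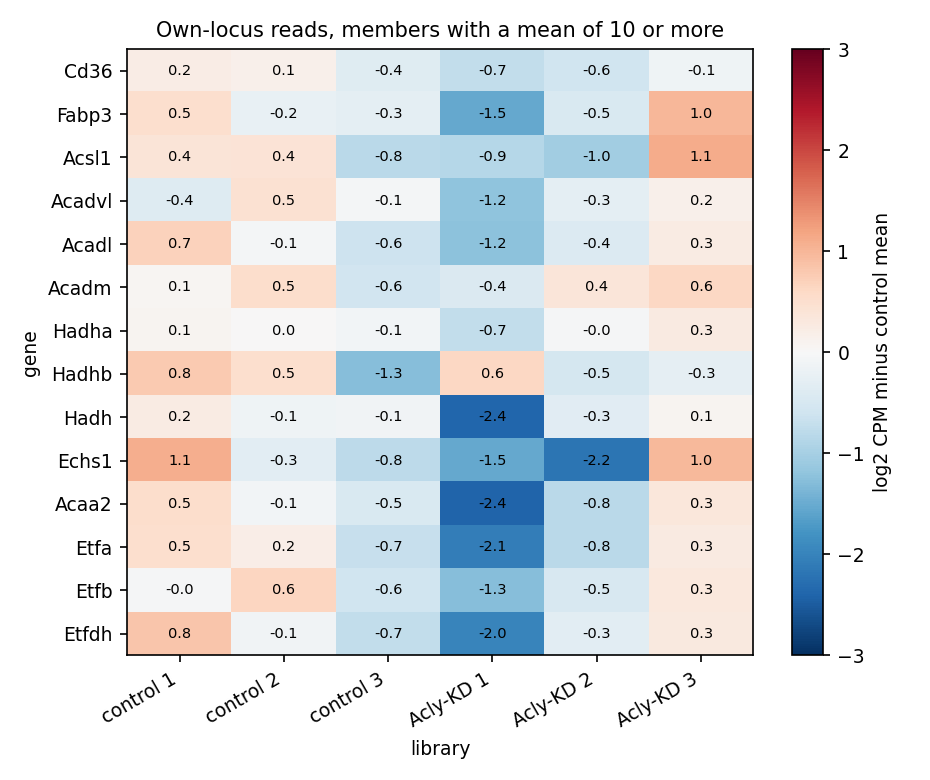
Own-locus log2 CPM minus the control mean, with 2 reads added to each count, for the 14 fatty acid genes with a mean of at least 10 reads, by library. Acly-KD replicate 1 holds the lowest CPM for 10 of the 14 genes and Acly-KD replicate 3 the highest for 5.

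The own-locus values differed from library to library, most widely within Acly-KD. Of the 14 genes with a mean of at least 10 reads, 10 had their lowest CPM in Acly-KD replicate 1, 2 in Acly-KD replicate 2 and 2 in control replicate 3. The highest was in Acly-KD replicate 3 and in control replicate 1 for 5 genes each, in control replicate 2 for 3 and in Acly-KD replicate 1 for 1. The median of these genes against the control mean was -1.25, -0.46 and 0.29 (log2) in the Acly-KD libraries and 0.44, 0.08 and -0.60 in the controls. At the 3 loci with reads on both strands the same order was seen in Acly-KD. Own-locus reads of Fabp3 per 100 reads of Zcchc17 were 0.861, 2.08 and 6.03 in the Acly-KD libraries and 3.25, 2.64 and 2.50 in the controls. For Acadvl per 100 reads of Dvl2 they were 0.123, 0.231 and 0.402 in Acly-KD and 0.208, 0.486 and 0.299 in control. Over the 3 loci the sum was 0.318, 0.684 and 1.96 in Acly-KD and 1.14, 1.07 and 0.832 in control, while the opposite features stayed between 660 and 794 reads per 1000000 uniquely aligned reads. At these 3 loci own-locus reads can also hold transcripts of the partner.

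Own-locus reads of heart muscle cell markers had the same order of libraries. All 10 markers had reads, with Myh6, Tnnt2 and Myl2 the highest, and their sum was 110, 214 and 445 reads per 1000000 uniquely aligned reads in the Acly-KD libraries and 416, 396 and 301 in the controls. The 32 fatty acid genes summed to 10.8, 17.4 and 39.7 in Acly-KD and 34.9, 30.3 and 20.6 in control on this scale. Per 100 own-locus reads of the heart muscle markers they held 9.87, 8.10 and 8.92 reads in the Acly-KD libraries and 8.39, 7.66 and 6.83 in the controls. On the first scale the fatty acid sum spanned both extremes within Acly-KD. On the second the groups overlapped, with Acly-KD replicates 1 and 3 above all controls. For the genes without an opposite feature this second ratio was 5.07, 3.71 and 3.58 in Acly-KD and 3.98, 3.79 and 3.14 in control. Of the 10 markers, Myl2, a ventricular myosin light chain, could also be read as mRNA. In CPM of that reading, a different scale from that of the sums, it did not have this order. It read 2374, 1773 and 2245 CPM in the Acly-KD libraries and 2113, 2234 and 1587 CPM in the controls, with Acly-KD replicate 1 the highest and a log2 fold change of 0.11 (adjusted p = 0.910 in edgeR). The part of the shared own-locus order in the values of the fatty acid genes was not tested.

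**Figure D4:**
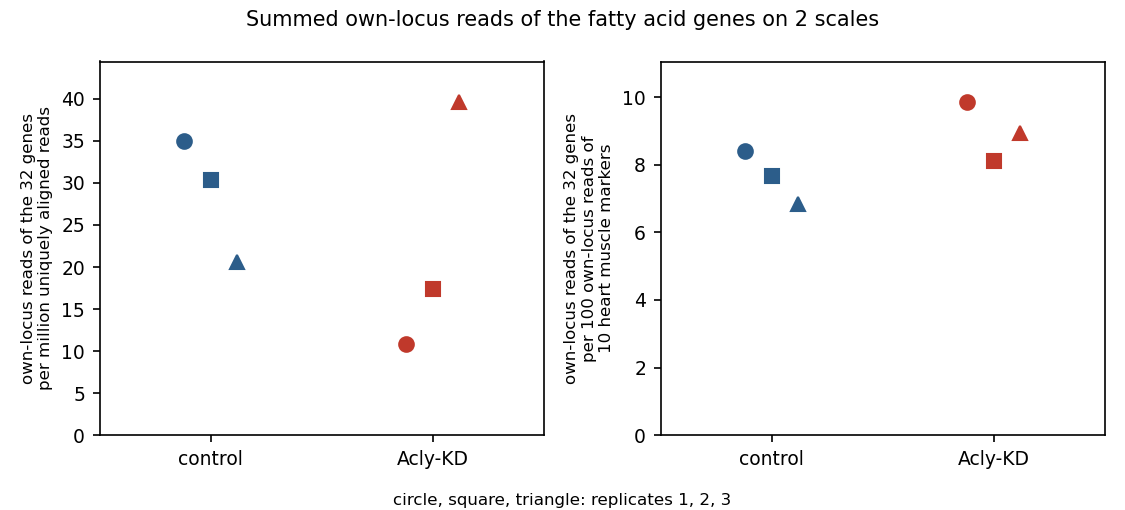
Summed own-locus reads of the 32 fatty acid genes in each library, as reads per 1000000 uniquely aligned reads (left) and per 100 own-locus reads of 10 heart muscle markers (right), in control (blue) and Acly-KD (red). The left panel ranges from 10.8 to 39.7 and the right panel from 6.83 to 9.87.

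Other cell types that use or store fat were looked for in the same counts. Sums and zeros of the marker lists are of own-locus reads, so a count of 0 does not show that a cell type was absent. Of 8 fat cell markers, 6 were at 0 in all libraries (Adipoq, Cfd, Cidec, Lep, Plin1 and Retn), and Fabp4 and Lipe had reads. Read as mRNA, Lipe held 1269 reads in all. The fat cell list summed to 0.794, 0.636 and 5.09 reads per 1000000 uniquely aligned reads in the Acly-KD libraries and 3.19, 3.03 and 2.04 in the controls. Fabp4 is also expressed by endothelial cells, as Cd36 is. All 10 endothelial markers had reads, and their sum was 0.962, 1.34 and 7.73 reads per 1000000 uniquely aligned reads in the Acly-KD libraries and 4.51, 4.33 and 2.65 in the controls. Fabp4 alone held 15, 10 and 127 of the 23, 21 and 202 endothelial marker reads in the Acly-KD libraries. In the controls it held 27, 76 and 46 of 41, 116 and 65. The order of the libraries in the endothelial sum was that of the fatty acid genes, and its part in their values was not tested. Fibroblast markers, all 8 with reads, summed to 0.460 to 0.727 in Acly-KD and 0.367 to 0.859 in control. Pericyte and smooth muscle markers, all 8 with reads, summed to 1.51 to 5.59 and 3.63 to 4.03. Of 9 macrophage and leukocyte markers 3 were at 0 (Adgre1, Fcgr1 and Ptprc), and the sum was 2.80 to 3.68 in Acly-KD and 2.97 to 4.36 in control. The 5 blood markers summed to 0.209 to 0.572 in Acly-KD and 0.367 to 1.01 in control. Of 6 atrial markers Sln was at 0, and the sum was 1.00 to 1.65 in Acly-KD and 2.08 to 2.50 in control. These groups did not overlap, as was the case for 11.4% of single features tested as deposited. Read as mRNA, the atrial markers Kcnj3 and Nppa went in opposite directions. Kcnj3, a potassium channel subunit, read 1050, 1144 and 1079 CPM in the Acly-KD libraries and 1266, 1549 and 1486 CPM in the controls. Its groups did not overlap, as for 14.7% of all genes in this reading. The log2 fold change of Kcnj3, -0.40, was not called (adjusted p = 0.230 in edgeR). Nppa, the atrial natriuretic peptide gene, had a log2 fold change of 0.56 (95% interval -1.35 to 2.46). Lipe, on the fat cell list, had one of -0.31 (95% interval -0.67 to 0.05) and Abcc9, on the pericyte list, one of -0.09. The part of these in the values of the fatty acid genes was not tested.

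**Figure D5:**
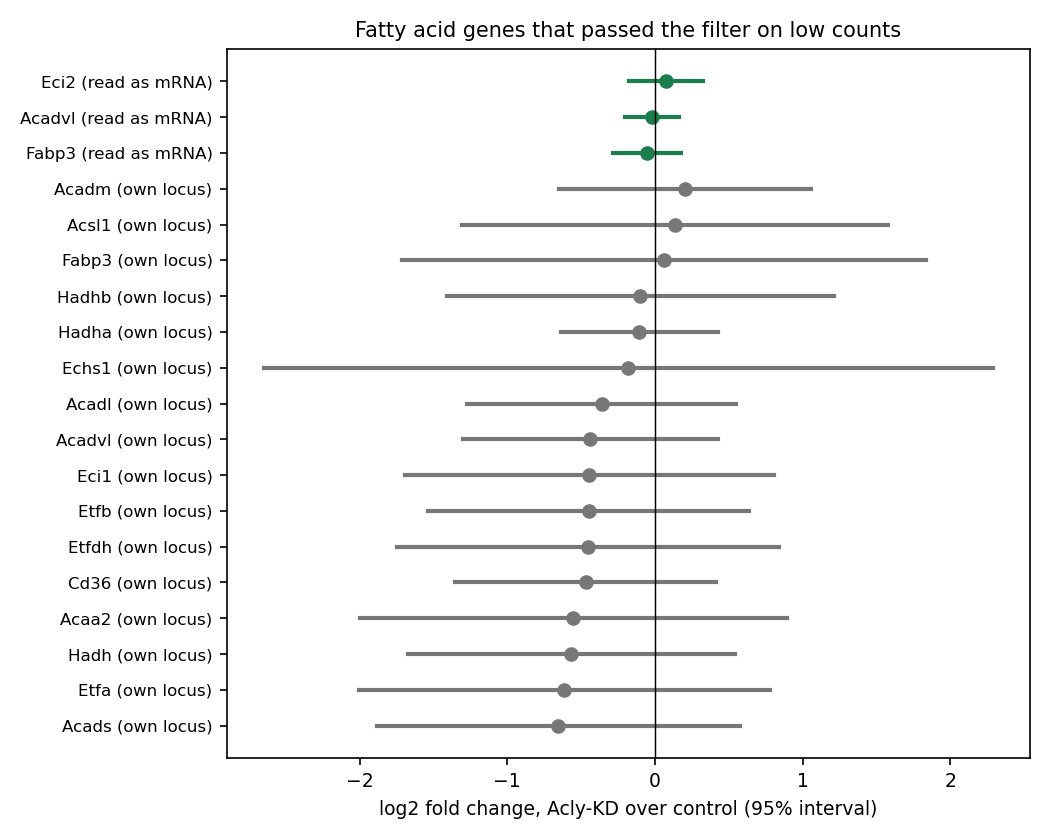
Log2 fold change (Acly-KD over control) with its 95% interval for the 16 fatty acid genes tested at their own loci (grey) and the 3 read as mRNA (green). All intervals include zero, and those of Fabp3, Acadvl and Eci2 read as mRNA, from -0.29 to 0.33 at the widest, are narrower than any at an own locus.

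A list of 61 other genes of fatty acid use and its control by PPAR factors gave a like picture. These genes were read from the same fit of the same libraries, so they are no independent check. At their own loci 19 were tested, 0 were called in either direction, 17 had log2 fold changes below zero and 2 above, and the median was -0.45, beside -0.04 over all features. The most abundant were Pdk4, Lpl and Ncor1. Pdk4, a kinase that restrains glucose oxidation and a known PPAR target, read 121, 129 and 309 CPM in the Acly-KD libraries and 178, 321 and 263 CPM in the controls. Its log2 fold change was -0.45 (95% interval -1.37 to 0.47). Lpl, which frees fatty acids from lipoproteins, read 95.2, 147 and 294 CPM in the Acly-KD libraries and 193, 263 and 151 CPM in the controls, a log2 fold change of -0.17 (95% interval -1.15 to 0.81). Ncor1, a corepressor, read 173, 198 and 193 CPM in the Acly-KD libraries and 149, 178 and 188 CPM in the controls, a log2 fold change of 0.11 (95% interval -0.29 to 0.52). Acly-KD replicate 1 was the lowest library for Pdk4 and Lpl and lay inside the range of the controls for Ncor1. Of the list, 1 gene had an unadjusted p under 0.05, namely Ppargc1a, a coactivator of mitochondrial genes, at a log2 fold change of -1.16 (adjusted p = 0.784 in edgeR), and it was chosen after its value was seen. It read 16.9, 34.2 and 77.5 CPM in the Acly-KD libraries and 51.0, 108 and 128 CPM in the controls, so that the groups overlapped. Ppara itself had 1 read in Acly-KD replicate 1, 1 in control replicate 2 and 0 elsewhere.

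Read as mRNA, 4 genes of that list were measured and 0 were called. Acad11, a peroxisomal and mitochondrial acyl-CoA dehydrogenase, read 4097, 4937 and 4337 CPM in the Acly-KD libraries and 4283, 3666 and 3555 CPM in the controls, with only control replicate 1 inside the Acly-KD range. Its log2 fold change was 0.22 (95% interval -0.03 to 0.46, adjusted p = 0.610 in edgeR). Crat, which moves acetyl groups between CoA and carnitine, read 1706, 1591 and 1901 CPM in the Acly-KD libraries and 2184, 1556 and 1772 CPM in the controls, a log2 fold change of -0.07 (95% interval -0.36 to 0.21). Acox3, a peroxisomal oxidase, and Acsl6, an acyl-CoA synthetase, had fewer reads and wider intervals, -0.27 to 0.81 and -0.72 to 0.48.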

How the data were processed

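Per the labels' protocols, libraries of poly-A RNA were made with a strand-marking kit. The tools listed, without versions or roles, in the submitters' processing notes are FastQC, SAMtools, TopHat2, DESeq2 and HTSeq, with build mm10. The authors deposited raw read counts per gene, whole and not normalized. Rows that name no gene took 97.4% to 97.7% of entries and stayed out of library sizes and tests. Of 46078 identifiers, 45143 matched GENCODE M21 (GRCm38, mm10).

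All features entered a single fit of their counts in edgeR 4.0.16 (R 4.3.3), with robust quasi-likelihood fits after TMM and a filterByExpr minimum of 10, and Benjamini-Hochberg adjustment at 0.05. An opposite feature shares at least 1 exonic base on the other strand. In the reading of mRNA, counts of a nuclear feature went to the gene that held 80% or more of the exonic overlap on the other strand, with 50 or more bases in common, where the gene itself had fewer reads or no row. By this rule, own-locus counts of Acsl1, Echs1, Etfdh, Hadha and Ucp2 went to their partners. Intervals use the t distribution of the test. Steps were also run on simulated counts that held no shifts shared by genes of a library, and no result here rests on them. Libraries of a group differed by more than sampling noise (chi-square per degree of freedom 3.43 to 10.1).

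The genes and lists were chosen with earlier results of these data known. Values per library are given for genes with a mean of at least 10 reads, and at the own loci of the other list for genes that passed or else the 3 most abundant. Acly, Eci2, Slc25a20, Ppargc1a, markers, sparse opposite features and the list's genes read as mRNA are given beyond this rule. Alternatives were DESeq2 1.42.0, its size factors, library totals, limma 3.58.1 (voom), other filters and overlap rules, a replicate block, each library left out and, added after the data were seen, all uniquely aligned reads as library size.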

Additional observations from a re-analysis of the deposited data

How the results depend on the processing

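No fatty acid gene or opposite feature was called under any alternative run, and 257 of 298 values of 22 genes and features kept their direction and side of the threshold, while 41 changed sign without passing it. With limma-voom the own-locus log2 fold changes were -0.33 for Fabp3 and -0.57 for Acsl1, and without a filter 0.035 for Hadhb. Zcchc17 was 0.014 with DESeq2's size factors, 0.014 in its test and 0.093 without a filter. Dvl2 was -0.055 with library totals, -0.033 with a mean of at least 50 reads and -0.097 with all uniquely aligned reads, a scale that moved the median of all features from -0.04 to -0.14 and gave -0.0039 for Gm16984 and, read as mRNA, -0.0029 for Eci2. Acadvl read as mRNA was 0.027 with library totals and 0.0097 with limma-voom.

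With each library left out, own-locus values ran from -0.92 to 0.51 for Fabp3, -1.18 to 0.54 for Acsl1, -0.066 to 0.67 for Acadm, -0.33 to 0.15 for Hadha, -0.60 to 0.34 for Hadhb, -2.63 to 0.41 for Echs1, -1.10 to 0.13 for Etfb and -1.13 to 0.045 for Etfdh. Without a change of sign they ran from -1.59 to -0.05 for Acaa2, -1.21 to -0.06 for Hadh, -1.85 to -0.10 for Etfa, -0.83 to -0.01 for Acadl, -0.86 to -0.09 for Acadvl, -1.17 to -0.38 for Acads, -0.95 to -0.13 for Eci1 and -0.70 to -0.30 for Cd36. They ran from -0.085 to 0.17 for Zcchc17, -0.016 to 0.13 for Dvl2 and, read as mRNA, -0.061 to 0.016 for Acadvl and -0.12 to 0.089 for Fabp3. Medians ran from -0.0098 to 0.17 over the opposite features and -0.061 to 0.089 over the genes read as mRNA. The cause was not tested.

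Pairing by replicate number was looked at in deviations of log2 CPM from the mean of each group. Across features, these deviations correlated at -0.07, -0.02 and -0.18 between same-numbered libraries. With 3 libraries per group this showed no sign of pairing but cannot tell whether libraries were paired. With a replicate block the own-locus median was -0.45, Fabp3 was -0.23 and Acsl1 -0.14, and calls among all genes read as mRNA went from 3 higher and 3 lower to 5 and 7. No call of a fatty acid gene changed with the block. Counts of calls over all genes read as mRNA also moved without a filter (12 higher, 18 lower), with a mean of at least 50 reads (0 and 0) and with each library left out (0 to 8 higher, 1 to 12 lower), and as deposited without a filter (2 higher, 1 lower) and with each library left out (0 to 23 higher, 0 to 46 lower). The own-locus median was -0.27 over the 30 genes tested without a filter. With a mean of at least 50 reads only 2 genes were left, Fabp3 at 0.06 and Hadha at -0.13, with a median of -0.03. The median was below zero in every setting run. Own-locus reads were few, and this limits what could be detected.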
